A study of Mus musculus with 6 samples.

Results

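The genes described here are those of CD44 and hyaluronan metabolism in 2 related mouse keratinocyte lines. The 8 members were taken by symbol from the 24982 genes listed for each library: the hyaluronan synthases *Has1*, *Has2* and *Has3*, the substrate enzyme *Ugdh*, the hyaluronidases *Hyal1* and *Hyal2*, and the receptors *Cd44* and *Hmmr*. All 8 were listed, and 5 of them were high enough to be tested.

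RNA-seq was performed on 3 libraries of the KSFM-Ca2+ cells and 3 libraries of the DKSFM cells. Both are untreated lines from newborn skin of C57BL/6 mice. The KSFM-Ca2+ cells were derived and kept in a serum-free keratinocyte medium without added calcium, and the DKSFM cells are their descendants that were adapted to a defined keratinocyte medium with more calcium. The comparison asks how gene expression differs between these lines. The DKSFM cells are the survivors of a change of medium, so that the medium, the selection of cells and the time in culture cannot be told apart. Nothing in the labels or methods tells if a replicate was its own culture, and the p-values measure only the spread between these libraries, which may be technical. The file names of KSFM-Ca2+ replicate 3 and of all DKSFM replicates carry the word combined, which is not explained.

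Hyaluronan is a long unbranched sugar polymer of the extracellular matrix. It is made at the plasma membrane by the hyaluronan synthases from UDP-glucuronic acid and UDP-N-acetylglucosamine, and is pushed out of the cell as it grows. Hyaluronidases cut it, and lysosomal exoglycosidases take the fragments apart. In epidermis, hyaluronan fills the space between keratinocytes of the living layers, where CD44 is its main receptor. CD44 spans the membrane, is tied to the actin cytoskeleton through ERM proteins, can be shed by proteases, and exists in many splice forms. HMMR, also called RHAMM, binds hyaluronan but is best known as a spindle protein of dividing cells.

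Values are the mean read coverage per base of a gene, listed to 1 decimal and scaled between libraries (normalized coverage). Since coverage is per base, levels of different genes are compared on this scale. Summed coverage was 1601676, 1238411 and 1057750 in KSFM-Ca2+ replicates 1, 2 and 3, and 1174348, 1239438 and 1170675 in the DKSFM replicates. Of the 12409 genes that passed the filter on low coverage, 9004 differed between the lines at an adjusted p under 0.01 (72.6%), 4375 being higher (35.3%) and 4629 lower in DKSFM (37.3%). At least 2-fold differences were found for 1630 genes higher (13.1%) and 1316 lower in DKSFM (10.6%), and in 10331 genes the 3 libraries of one line were all above those of the other (83.3%). Among the 5 tested members, 3 were lower and 1 was higher in DKSFM, 4 did not overlap between the lines, and the median log2 fold change was -0.31, against -0.01 over all tested genes. With calls this common, the count of members is close to that of genes at large, and the members are described by their levels and the size of the difference. Adjusted p-values are from limma over all tested genes, and fold changes are on the scale of log2(normalized coverage + 0.1).

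The label of the cells was checked on marker genes. All 8 keratinocyte markers were present, with a summed normalized coverage of 19180, 19590 and 19240 in KSFM-Ca2+ and 48110, 44530 and 48700 in DKSFM, most of it *Krt14*. The markers did not all follow this sum. *Itgb4* fell from 321.5 ± 6.30 to 191.7 ± 8.57 (SD, n = 3 each), and *Trp63* and *Itga6* rose only 1.09-fold and 1.10-fold. The 6 suprabasal markers summed to 83.3, 79.5 and 87.3 in KSFM-Ca2+ and to 803, 855 and 798 in DKSFM. The rise of this sum is almost wholly that of *Sbsn*, from 58.2 ± 3.55 to 794 ± 30.3 (SD, n = 3 each). *Lor* rose from 0.332 ± 0.247 to 3.98 ± 0.229, *Krt1* and *Dsg1a* were listed only in DKSFM, and *Ivl* fell from 21.3 ± 0.200 to 13.5 ± 0.391 (limma, adjusted p = 3.7e-06). Of 8 fibroblast markers, which matter here because fibroblasts make much hyaluronan, 7 were listed at 0 in every library, *Col1a1*, *Col1a2* and *Dcn* among them. *Pdgfra*, the remaining one, was at 1.14, 0.893 and 1.30 in KSFM-Ca2+ and 2.33, 2.10 and 2.23 in DKSFM. Of 7 immune markers, *Adgre1* and *Cd3e* were listed at 0 throughout and *Ptprc* did not exceed 0.1, while *Cd68* made up most of the sum, which was 10.9, 11.2 and 12.6 in KSFM-Ca2+ and 13.7, 18.9 and 20.7 in DKSFM. The 4 endothelial markers summed to 2.82, 3.17 and 3.31 against 8.26, 8.28 and 7.42, nearly all *Pecam1*, with *Cdh5* listed at 0. The 6 melanocyte markers summed to less than 1 in every library, most of it *Pmel*, with *Dct* and *Tyr* listed at 0.

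The members that differed between the lines are introduced with their promoters, 250 bases before to 50 after the start site, from RefSeq on GRCm38.p6. Promoters were found for 6 of the 8 members, and those of the 4 members past the test are shown so that the genes that fell (*Cd44*, *Hmmr*, *Ugdh*) can be read beside the one that rose (*Hyal1*). Capitals mark matches on either strand to the CCAAT box (CCAAT) and to the CHR element (TTTGAA), a sequence known from cell cycle genes. The AP-1 sequence (TGANTCA) and the TATA box (TATAAA) were searched as well, and no match overlapped another.
*Cd44* promoter, chr2:102901616-102901915, minus strand: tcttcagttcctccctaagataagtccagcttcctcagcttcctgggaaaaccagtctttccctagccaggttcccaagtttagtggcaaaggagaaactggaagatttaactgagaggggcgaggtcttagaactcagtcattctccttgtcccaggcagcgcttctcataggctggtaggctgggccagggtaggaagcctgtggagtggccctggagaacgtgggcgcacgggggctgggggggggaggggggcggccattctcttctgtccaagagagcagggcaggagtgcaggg
*Hmmr* promoter, chr11:40733388-40733687, minus strand: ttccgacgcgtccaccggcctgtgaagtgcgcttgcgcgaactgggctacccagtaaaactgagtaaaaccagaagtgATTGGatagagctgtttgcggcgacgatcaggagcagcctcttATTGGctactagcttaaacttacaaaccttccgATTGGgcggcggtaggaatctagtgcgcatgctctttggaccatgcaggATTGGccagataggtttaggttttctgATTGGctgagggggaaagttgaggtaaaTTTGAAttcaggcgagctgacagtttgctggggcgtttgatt
*Ugdh* promoter, chr5:65435793-65436092, minus strand: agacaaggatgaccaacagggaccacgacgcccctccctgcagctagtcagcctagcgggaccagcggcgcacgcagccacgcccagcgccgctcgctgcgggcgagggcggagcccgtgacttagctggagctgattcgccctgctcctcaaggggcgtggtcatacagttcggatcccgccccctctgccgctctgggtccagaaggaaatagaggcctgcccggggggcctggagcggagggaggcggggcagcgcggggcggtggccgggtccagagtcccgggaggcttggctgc
*Hyal1* promoter, chr9:107576700-107576999, plus strand: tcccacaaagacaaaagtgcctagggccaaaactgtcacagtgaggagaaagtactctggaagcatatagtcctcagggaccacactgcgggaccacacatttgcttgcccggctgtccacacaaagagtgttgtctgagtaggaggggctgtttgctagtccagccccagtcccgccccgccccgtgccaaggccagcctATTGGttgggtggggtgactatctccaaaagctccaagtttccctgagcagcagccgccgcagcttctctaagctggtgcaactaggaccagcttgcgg
The *Hmmr* window held 5 CCAAT boxes, all on the reverse strand, starting at -172, -129, -96, -47 and -20 from the start site, and 1 CHR element at 8. *Hyal1* had 1 CCAAT box at -49, and the windows of *Cd44* and *Ugdh* had none of the searched letters. Of the windows not shown, that of *Has1* had 1 CCAAT box at -203 and 1 CHR element at -45, and that of *Hyal2* had no match. Among 32851 promoter windows of this length, 37.4% held a CCAAT box, 17.9% a CHR element, 7.81% an AP-1 sequence and 13.6% a TATA box. A match describes the sequence and is not a binding site.

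The 3 synthases were at the lower end of what the libraries can show. *Has1* (chr17:17843323-17855205) was listed at 0 in all KSFM-Ca2+ libraries and at 0.3, 0.4 and 0.2 in DKSFM. *Has2* (chr15:56665627-56694539), the main synthase of mouse development, had the opposite distribution, with 0.4, 0.3 and 0.2 in KSFM-Ca2+ and 0 in all DKSFM libraries. *Has3* (chr8:106870242-106884566) was listed at 0.2, 0.1 and 0.1 in KSFM-Ca2+ and at 0.1 in each DKSFM library. So *Has1* was seen only in DKSFM and *Has2* only in KSFM-Ca2+ among these 6 libraries, while *Has3* overlapped between the lines. None of them reached the filter of 0.5, so they were left out of the main test, and no fold is given against a line listed at 0. One step of 0.1 stands for roughly 3.32 reads over the median annotated transcript of *Has1*, 4.98 for *Has2* and 4.88 for *Has3*, so the values rest on few reads. In these bulk samples, fewer cells with a transcript and less transcript per cell cannot be told apart.

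Overlapping genes add to this uncertainty. *Has2os*, transcribed from the opposite strand across the start of *Has2*, was listed at 0.8, 0.3 and 0.2 in KSFM-Ca2+ and at 0, 0.2 and 0 in DKSFM. The libraries were directional and aligned by the authors with a first-strand setting. Whether the listed coverage per gene also used the strand is not given in the sources used here, and sharing of reads between *Has2* and *Has2os* was not tested. *Has3* overlaps the end of *Chtf8* on the opposite strand, which was listed at 192, 147 and 121 in KSFM-Ca2+ and at 94.0, 92.6 and 94.9 in DKSFM.

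**Figure D1:**
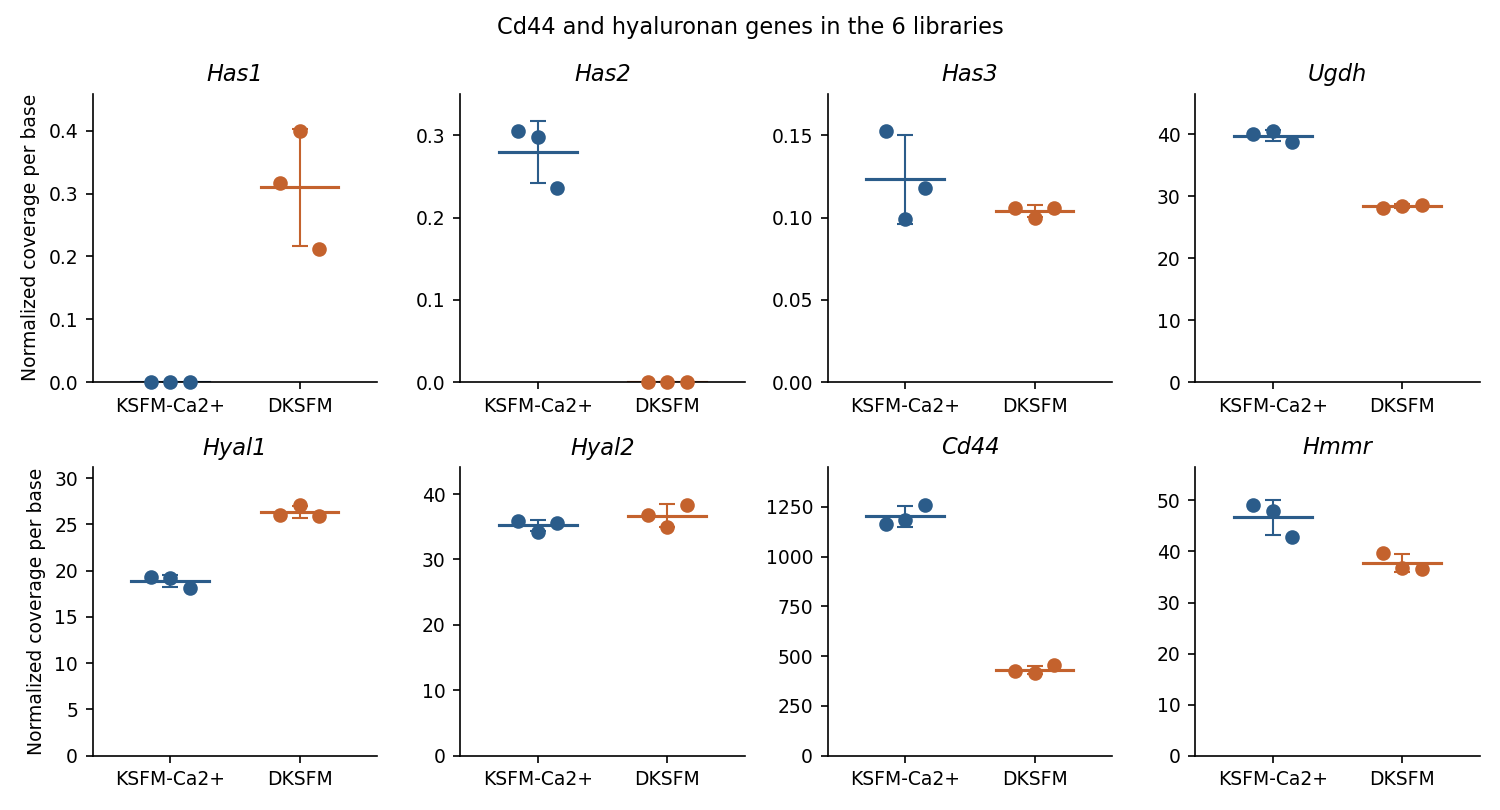
Normalized coverage per base of the 8 members in the 3 KSFM-Ca2+ and 3 DKSFM libraries, 1 point per library, with the mean and SD of each line as a long bar and an error bar and a vertical axis from 0 in each panel. *Cd44*, *Hmmr* and *Ugdh* were lower and *Hyal1* higher in every DKSFM library than in any KSFM-Ca2+ library, *Hyal2* overlapped, and the synthases did not exceed 0.4.

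Against this, the enzymes that supply the substrates were well expressed. *Ugdh* (chr5:65413221-65435949) encodes UDP-glucose dehydrogenase, which makes UDP-glucuronic acid. Its normalized coverage was 40.0, 40.5 and 38.7 in KSFM-Ca2+ and 28.1, 28.4 and 28.6 in DKSFM. All DKSFM libraries were below all KSFM-Ca2+ libraries, and the 3 DKSFM values lay within 1 unit. *Ugdh* was 1.40-fold higher in KSFM-Ca2+ (95% confidence interval 1.32 to 1.49, log2 fold change -0.48 ± 0.04 SE, adjusted p = 6.0e-06, n = 3 per line).

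Beside *Ugdh*, 13 genes of UDP-sugar supply were tested. Of these, 8 were lower and 1 higher in DKSFM at an adjusted p under 0.01, with a median log2 fold change of -0.57, compared with 37.3% lower and a median of -0.01 over all tested genes. On the glucose side upstream of *Ugdh*, *Ugp2*, which makes UDP-glucose and was the highest gene of this list in DKSFM, rose from 128 ± 2.26 in KSFM-Ca2+ to 148 ± 0.512 in DKSFM (SD, n = 3 each). Of the phosphoglucomutases before it, the gene listed as *Pgm2* fell from 46.5 ± 2.64 to 28.6 ± 1.21 (1.63-fold), and the one listed as *Pgm1* was at 45.9 ± 1.89 and 47.3 ± 0.795 (adjusted p = 0.33). RefSeq gives each of these symbols as a synonym of the other gene, so which is which depends on the annotation of the authors. *Uxs1*, which uses up UDP-glucuronic acid, fell from 40.3 ± 1.77 to 27.1 ± 1.41. On the hexosamine side, the entry enzyme *Gfpt1* was at 17.3 ± 0.335 and 15.9 ± 0.433 and did not pass (adjusted p = 0.058). Its paralog *Gfpt2* was listed at 0.1 in KSFM-Ca2+ replicate 1 and at 0 elsewhere.

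The 3 enzymes that follow GFPT1 on the way to UDP-N-acetylglucosamine were all lower in DKSFM. The acetyltransferase *Gnpnat1* was at 24.7, 25.0 and 26.6 in KSFM-Ca2+ and at 10.6, 12 and 12.8 in DKSFM, a 2.15-fold difference (interval 1.90 to 2.43). The mutase *Pgm3* was at 17.5, 17.8 and 19.1 against 9.95, 7.68 and 8.59, or 2.07-fold (1.78 to 2.41). The pyrophosphorylase *Uap1* was the most abundant of the 3 and fell from 153 ± 2.84 to 88.6 ± 3.10 (1.73-fold, interval 1.63 to 1.82). Its paralog *Uap1l1* had the largest difference of the list, with 59.4, 63.8 and 63.4 in KSFM-Ca2+ and 8.36, 9.98 and 10.7 in DKSFM. This was 6.40-fold (5.56 to 7.37, adjusted p = 4.1e-08). *Gnpda1*, a deaminase that runs the entry step backwards, fell 1.76-fold (1.62 to 1.91), whereas its paralog *Gnpda2* was at 52.0 ± 1.44 and 51.7 ± 4.21.

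The hyaluronidases were expressed at moderate levels in both lines. *Hyal2* (chr9:107567945-107572779), a membrane-anchored enzyme that starts the breakdown of long hyaluronan chains, had a normalized coverage of 35.8, 34.2 and 35.5 in KSFM-Ca2+ and 36.8, 34.9 and 38.4 in DKSFM. The lines overlapped, and the log2 fold change was 0.06 with a 95% confidence interval of -0.05 to 0.17 (adjusted p = 0.26). *Hyal1* (chr9:107576927-107581710), the lysosomal enzyme next to it on chromosome 9, was at 19.3, 19.2 and 18.2 in KSFM-Ca2+ and at 26.0, 27.1 and 25.9 in DKSFM. It was the one tested member that rose, by 1.39-fold (1.29 to 1.5, log2 fold change 0.48 ± 0.05 SE, adjusted p = 2.6e-05).

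The level of *Hyal1* carries a limit. Its annotated span overlaps *Hyal3* and *Nat6* on the same strand, so that reads may have been shared among them. Before scaling between libraries, *Nat6* was listed at 20, 14.7 and 13.1 in KSFM-Ca2+ and at 20.7, 23.8 and 21.4 in DKSFM. On that unscaled basis, *Hyal1* was at 25.3, 19.4 and 15.4 in KSFM-Ca2+ and at 24.6, 27.2 and 24.4 in DKSFM. *Hyal3* was listed at no more than 0.7 in any library. The ratio of *Hyal2* to *Hyal1* coverage was 1.86, 1.78 and 1.96 in KSFM-Ca2+ and 1.42, 1.29 and 1.48 in DKSFM.

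Besides *Hyal1* and *Hyal2*, 6 genes of hyaluronan breakdown were tested. Of these, 4 were lower (66.7%) and 0 higher in DKSFM, with a median log2 fold change of -0.70, against 37.3% lower and a median of -0.01 over all tested genes, and *Hyal4*, *Hyal5*, *Hyal6* and *Spam1* were listed at 0 in every library. *Tmem2*, a cell surface protein with hyaluronidase activity also known as CEMIP2, was at 14.0, 15.8 and 15.5 in KSFM-Ca2+ and 7.62, 6.49 and 7.42 in DKSFM, 2.09-fold lower in the latter (1.83 to 2.39). The related *Cemip* was near the filter, at 0.653 ± 0.175 and 0.692 ± 0.0527. *Hexa*, which encodes part of a lysosomal exoglycosidase acting on hyaluronan fragments, fell from 30.6 ± 1.69 to 21.4 ± 1.36.

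*Gusb*, which encodes the lysosomal beta-glucuronidase that removes glucuronic acid from hyaluronan fragments, had hardly any coverage in DKSFM. It was listed at 54.9, 41.3 and 38.7 in KSFM-Ca2+ but at 0.1, 0.1 and 0.2 in DKSFM. The lowest KSFM-Ca2+ library was 193 times the highest DKSFM library after normalization. The DKSFM values are at the rounding step of 0.1, so the fitted log2 fold change of -7.52 (adjusted p = 8.1e-09) depends on the pseudocount. *Gusb* is often used as a reference gene in qPCR.

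*Cd44* was by far the highest member in both lines. The gene lies on chr2:102811141-102901665 and its coverage stood above that of 98.9% of the tested genes in KSFM-Ca2+ and 96.2% in DKSFM. Its normalized coverage was 1162, 1182 and 1261 in KSFM-Ca2+ and 425, 415 and 454 in DKSFM. The lowest KSFM-Ca2+ library was 2.56 times the highest DKSFM library. The fitted difference was 2.79-fold (95% confidence interval 2.60 to 2.99, log2 fold change -1.48 ± 0.04 SE, adjusted p = 2.5e-08), and *Cd44* was the one member past the 2-fold threshold, which 10.6% of tested genes passed in this direction.

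*Hmmr* (chr11:40701395-40733422) changed little by comparison. It was at 49.2, 48.0 and 42.9 in KSFM-Ca2+ and at 39.7, 36.8 and 36.5 in DKSFM, so that the lowest KSFM-Ca2+ library was 1.08 times the highest DKSFM library. The fold was 1.24 (1.12 to 1.37, log2 fold change -0.31 ± 0.06 SE, adjusted p = 0.0017 by limma). The call was lost without DKSFM replicate 2 (adjusted p = 0.011) and in the libraries marked as combined alone (0.055), in a range of 0.00058 to 0.055 over the alternatives tried. The ratio of *Cd44* to *Hmmr* coverage was 23.6, 24.6 and 29.4 in KSFM-Ca2+ and 10.7, 11.3 and 12.5 in DKSFM.

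Within each line the members were spread over several orders of magnitude. In KSFM-Ca2+ the order of mean normalized coverage was *Cd44* (1202 ± 52.6), *Hmmr* (46.7 ± 3.36), *Ugdh* (39.7 ± 0.903), *Hyal2* (35.2 ± 0.858), *Hyal1* (18.9 ± 0.624), *Has2* (0.280 ± 0.0378), *Has3* (0.123 ± 0.0270) and *Has1*, listed at 0. In DKSFM it was *Cd44* (431 ± 20.4), *Hmmr* (37.7 ± 1.77), *Hyal2* (36.7 ± 1.73), *Ugdh* (28.4 ± 0.296), *Hyal1* (26.3 ± 0.692), *Has1* (0.310 ± 0.0938), *Has3* (0.104 ± 0.00355) and *Has2*, listed at 0. Every neighbour in these orders was separated in all libraries except *Hmmr* and *Hyal2* in DKSFM, which overlapped, and the synthases were apart by little more than a rounding step. *Ugdh* and *Hyal2* exchanged places between the lines.

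**Figure D2:**
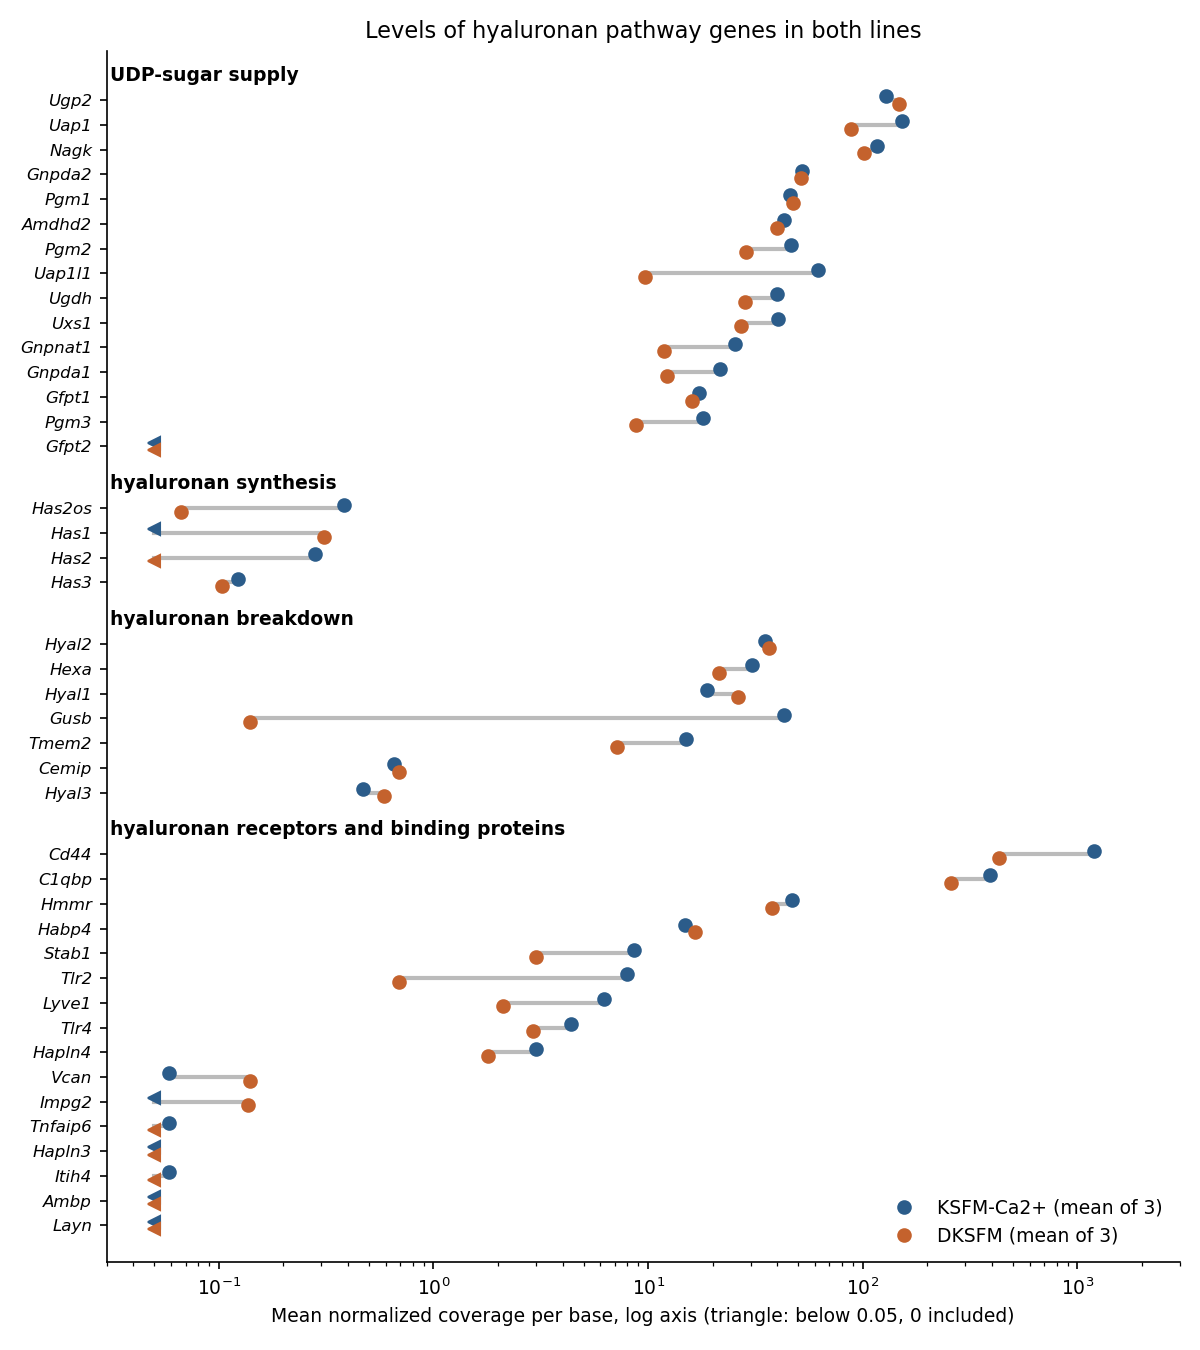
Mean normalized coverage per base on a log axis for the genes of UDP-sugar supply, hyaluronan synthesis, hyaluronan breakdown and hyaluronan binding that are reported here and were above 0 in at least 1 library, with KSFM-Ca2+ in blue, DKSFM in orange, each the mean of 3 libraries, and a grey line joining both. Triangles stand for means below 0.05, 0 included. The synthases lie below 0.5 in both lines, *Cd44* is the highest gene, and *Gusb* has the longest line.

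The other hyaluronan receptors and binding proteins were few and, apart from *C1qbp*, low. Of 27 listed genes besides *Cd44* and *Hmmr*, 13 were at 0 in every library, among them the cartilage link protein *Hapln1*, the proteoglycan cores *Acan*, *Bcan* and *Ncan*, and the scavenger receptor *Stab2*. Of the 7 that were tested, 6 were lower in DKSFM at an adjusted p under 0.01, and the median log2 fold change was -0.71, against 37.3% lower and a median of -0.01 over all tested genes. The remaining one, *Habp4*, was at 14.8 ± 0.693 and 16.5 ± 0.822 (limma, adjusted p = 0.044). The calls of *Tlr4* and *Hapln4* were each lost in 1 of 16 alternatives, the libraries marked as combined alone, where KSFM-Ca2+ has a single library. That of *Hmmr* was lost there as well.

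The largest difference of this list was that of *Tlr2*, a pattern recognition receptor that can respond to hyaluronan fragments. It was at 8.92, 7.64 and 7.32 in KSFM-Ca2+ and 0.741, 0.599 and 0.742 in DKSFM, a 10.2-fold difference (8.19 to 12.6). *Tlr4* fell less, from 4.35 ± 0.246 to 2.90 ± 0.174. *Lyve1*, a relative of CD44 known from lymphatic vessels, was at 6.18, 6.15 and 6.38 against 2.01, 1.90 and 2.44 (2.87-fold, 2.40 to 3.45). *Stab1*, a scavenger receptor known from macrophages and sinusoidal endothelium, was at 9.30, 9.13 and 7.44 against 2.86, 2.99 and 3.18 (2.79-fold, 2.35 to 3.32). *C1qbp*, a mitochondrial protein that also binds hyaluronan, fell 1.51-fold from 390 ± 24.5 to 258 ± 1.40.

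Genes that tie CD44 to the cytoskeleton, cut it or bind it were divided. Of 15 tested genes, 8 were higher (53.3%) and 7 lower in DKSFM (46.7%), and the median log2 fold change was 0.18, against 35.3% and 37.3% of all tested genes. The ERM proteins, which link the tail of CD44 to actin, were all lower in DKSFM. Moesin (*Msn*) was at 599, 612 and 615 in KSFM-Ca2+ and 185, 177 and 191 in DKSFM, 3.30-fold lower (3.13 to 3.49, adjusted p = 3.3e-09), whereas radixin (*Rdx*) and ezrin (*Ezr*) fell 1.56-fold and 1.45-fold. Merlin (*Nf2*), an ERM relative that also binds the CD44 tail, rose from 323 ± 8.93 to 405 ± 3.14, and ankyrin G (*Ank3*) from 30.4 ± 0.810 to 57.2 ± 2.83.

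Of the proteases that cut the CD44 ectodomain, *Adam10*, *Adam17* and *Mmp14* moved against *Cd44* itself. *Adam10* was at 56.3, 51.8 and 54.3 in KSFM-Ca2+ and 83.3, 85.9 and 84.1 in DKSFM, *Adam17* rose from 149 ± 6.98 to 236 ± 3.45, and *Mmp14* from 104 ± 0.391 to 148 ± 4.87. These are 1.56-fold, 1.58-fold and 1.43-fold higher levels in DKSFM. *Ncstn*, a subunit of the gamma-secretase that cleaves the membrane stub that is left, fell 1.54-fold. *Mmp9* was listed at 0.2 at most and only in KSFM-Ca2+, and *Mmp7* at 0.3 at most and only in DKSFM.

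Among the other partners of CD44, osteopontin (*Spp1*), a secreted CD44 ligand, was at 8.16, 9.52 and 4.49 in KSFM-Ca2+ and at 21.5, 21.6 and 20.9 in DKSFM (3.0-fold higher, 2.04 to 4.40). KSFM-Ca2+ replicate 3 was the lowest of these libraries. *Cd74*, which pairs with CD44 as a receptor for the cytokine MIF, was listed at 1.6, 1.5 and 1.6 in KSFM-Ca2+ and at 0 in all DKSFM libraries. *Mif* was the highest gene of the list and differed little, at 614 ± 17.4 and 568 ± 8.57 (adjusted p = 0.0070, past the threshold in the full comparison but not in 10 of 16 alternatives, among them each library left out in turn). *Met*, whose signalling uses a CD44 splice form, fell 1.70-fold from 79.5 ± 1.55 to 46.8 ± 0.867.

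Coverage per gene does not separate the splice forms of *Cd44*, so only the factors known to act on its variable exons could be followed. Of 9 such genes, all tested, 2 were higher (22.2%) and 4 lower in DKSFM (44.4%, against 37.3% of all tested genes), with none at least 2-fold and a median log2 fold change of -0.12. The epithelial splicing regulators, which favour the variable exons, were the 2 that rose. *Esrp1* was at 388, 375 and 371 in KSFM-Ca2+ and 417, 426 and 430 in DKSFM (1.12-fold), and *Esrp2* at 23.5, 23.1 and 21.7 against 39.7, 37.6 and 40.7 (1.73-fold, 1.59 to 1.87). *Tra2b* and *Srsf1* fell 1.28-fold and 1.21-fold, and *Hnrnpa1*, the highest of the list, fell from 1231 ± 25.7 to 1023 ± 33.6. *Hnrnpm*, which opposes the ESRP proteins, fell 1.13-fold, a call that was lost in 6 of 16 alternatives, among them those without KSFM-Ca2+ replicate 1, KSFM-Ca2+ replicate 2 or DKSFM replicate 2.

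**Figure D3:**
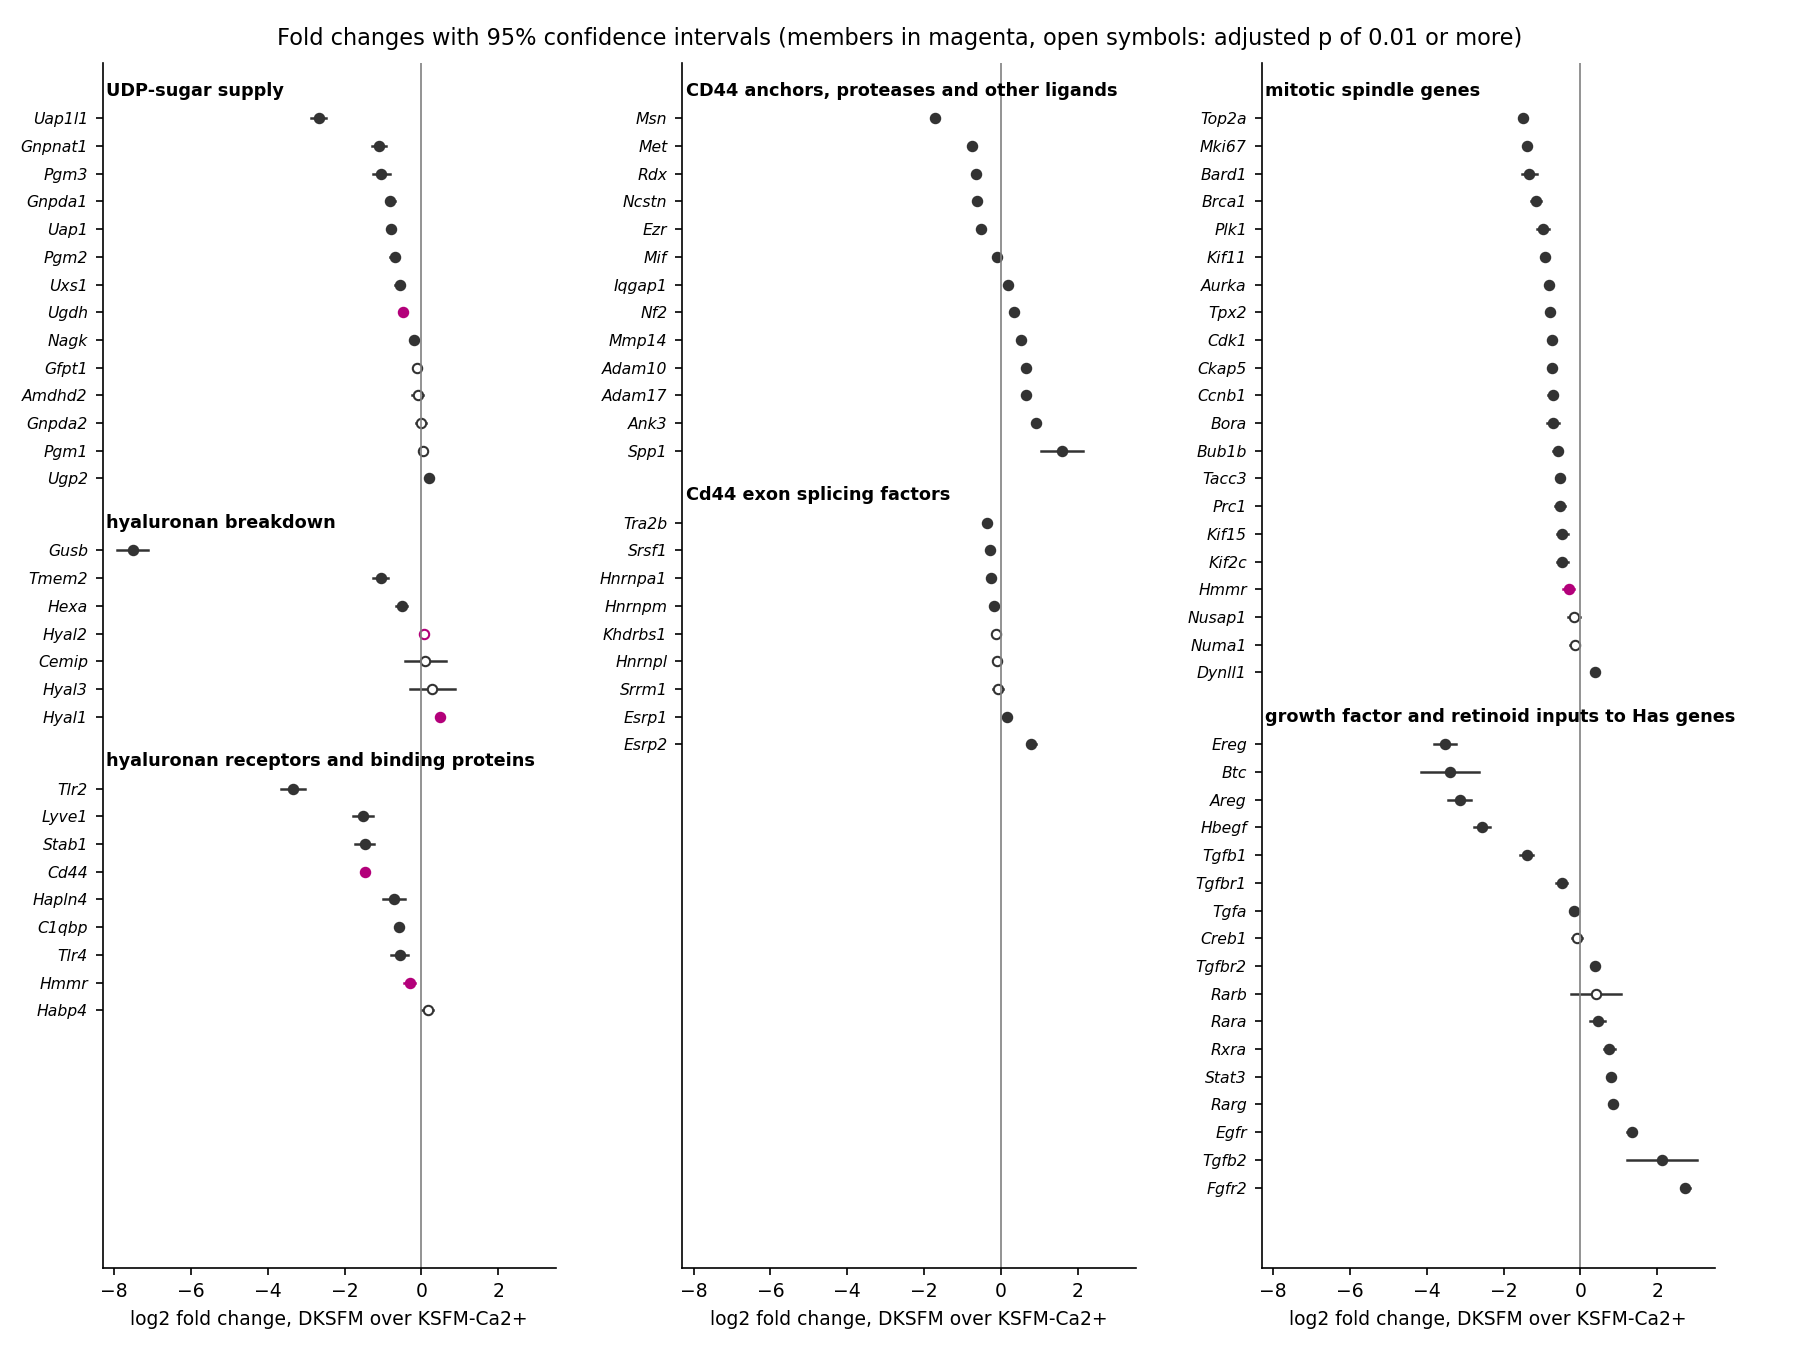
Log2 fold change (DKSFM over KSFM-Ca2+, points) with its 95% confidence interval (lines) for the tested genes of 7 lists that are reported here, leaving out *Cd74*, which was listed at 0 in DKSFM. Members are in magenta, and open symbols did not pass an adjusted p of 0.01. *Cd44* lies at -1.48 among receptors that were mostly lower in DKSFM, and *Hmmr* at -0.31 near the small end of the spindle genes, while *Gusb*, at the rounding step in DKSFM, lies at -7.52.

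As HMMR acts at the spindle, *Hmmr* was set beside a list of 21 genes of the spindle and of cell division, itself included. Of these, 18 were lower and 1 higher in DKSFM, with a median log2 fold change of -0.72, and 4 were at least 2-fold lower. Over all tested genes, 37.3% were lower and 10.6% at least 2-fold lower, with a median of -0.01. These 4 were *Top2a*, *Mki67*, *Bard1* and *Brca1*, which act in cell division or DNA repair more widely, and no motor or kinase of the list fell as much. *Mki67*, which encodes the proliferation marker Ki-67, was at 75.2, 73.8 and 72.5 in KSFM-Ca2+ and 29.7, 27.0 and 28.0 in DKSFM (2.61-fold), *Top2a* fell from 221 ± 2.47 to 78.7 ± 1.57 (2.81-fold) and *Bard1* from 7.98 ± 0.184 to 3.12 ± 0.253 (2.52-fold).

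*Hmmr* had the smallest fold of the genes called lower in this list, and the other 17 fell 1.38-fold or more. *Tpx2*, the spindle assembly factor that HMMR helps to place and the highest gene of the list, was at 584, 564 and 551 in KSFM-Ca2+ and 351, 313 and 319 in DKSFM (1.73-fold, 1.61 to 1.86), and its kinase *Aurka* fell 1.76-fold (1.64 to 1.88). The interval of *Hmmr* ended at 1.37. The difference between these genes was not tested. *Dynll1*, a dynein light chain, rose 1.30-fold. *Numa1*, a spindle pole protein, was at 27.3 ± 1.14 and 24.6 ± 0.746 (1.11-fold) and *Nusap1* at 50.5 ± 4.16 and 45.0 ± 2.74, both without passing (adjusted p = 0.0205 and 0.056). Promoters were found for 19 of the genes on this list, *Hmmr* included. Of these genes, 13 held a CCAAT box and 13 a CHR element in any of their windows (68.4% each). Counted by window and not by gene, the shares over all promoter windows were 37.4% and 17.9%.

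Signals known to control the *Has* genes in keratinocytes were followed although the synthases were low in both lines. Of 17 tested genes, 8 were higher (47.1%) and 7 lower in DKSFM (41.2%), around a median log2 fold change of 0.39, against 35.3% higher and 37.3% lower among all tested genes. Of 5 ligands of the EGF receptor, which can induce *Has2* in keratinocytes, 4 were at least 2-fold lower in DKSFM, as were 10.6% of all tested genes. *Ereg* was at 13.0, 14.5 and 14.9 in KSFM-Ca2+ and 0.953, 1.30 and 1.17 in DKSFM (11.5-fold, 9.43 to 14.1), *Areg* fell from 16.1 ± 2.0 to 1.73 ± 0.218 and *Hbegf* from 48.7 ± 4.61 to 8.18 ± 0.844. *Btc* was listed at 2.0, 1.7 and 1.3 in KSFM-Ca2+ and at 0.1, 0.1 and 0 in DKSFM, which is at the rounding step. *Tgfa* was at 36.5 ± 0.132 and 32.5 ± 1.54 (adjusted p = 0.0074, a call lost in 9 of 16 alternatives).

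The receptors went the other way. *Egfr* was at 18.5, 18.9 and 18.4 in KSFM-Ca2+ and 45.2, 46.1 and 49.1 in DKSFM (2.51-fold higher, 2.33 to 2.70). *Fgfr2*, which as its epithelial splice form is the receptor of the keratinocyte growth factor FGF7, was at 49.3, 46.4 and 43.9 against 311, 301 and 316 (6.64-fold higher, 6.17 to 7.15) and was the highest gene of the list in DKSFM. *Stat3*, *Rarg* and *Rxra* rose 1.73-fold, 1.79-fold and 1.68-fold, the last 2 being the main retinoid receptors of epidermis. *Tgfb1* fell 2.64-fold, from 59.8 ± 0.309 to 22.7 ± 2.41. *Tgfb2* was near the filter, listed at 0.2, 0.1 and 0 in KSFM-Ca2+ and at 0.5, 0.7 and 0.7 in DKSFM (higher, adjusted p = 0.0011, with a fold that depends on the pseudocount). Their receptor genes differed in direction, with *Tgfbr1* 1.41-fold lower and *Tgfbr2* 1.31-fold higher.

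The genes most like each member over the 6 libraries were named by the distance between centred log2 profiles, among 8682 other genes with a mean coverage of at least 10. *Cd44* was closest to *Cdr2* (distance 0.0751), *Cr1l* (0.0777) and *Mcm3* (0.0786), and *Ugdh* to *Ttc9c* (0.0186), *Mfsd1* (0.0341) and *G3bp1* (0.0354). *Hmmr* was closest to *Tmem260* (0.0535), *Spire1* (0.0768) and *Ppp1r8* (0.0797), none of them from the spindle list. *Hyal1* was closest to *Tmf1* (0.0352), *Zfp513* (0.0390) and *Kdm4c* (0.0408), and *Hyal2* to *Ap2a1* (0.0439), *Dnajb12* (0.0521) and *Nudt9* (0.0538). With 6 libraries in 2 lines, such a distance mostly reflects the size of the difference between the lines.

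Members were also placed among their chromosomal neighbours, the tested genes within 10 Mb on the mm10 (GRCm38) genome. Taken over these neighbours, the median log2 fold change lay between -0.18 and 0.10 for 7 members, from *Has2* on chromosome 15 (44 genes) to *Hyal2* on chromosome 9 (162 genes). The median furthest from 0 was that around *Has3* on chromosome 8. Its 116 neighbours had a median of -0.54, with 87 of them lower (75%) and 10 higher in DKSFM (8.62%), against 37.3% and 35.3% of all tested genes. *Chtf8*, which overlaps its end, and *Utp4* beyond it fell with log2 fold changes of -0.57 and -0.78. Chromosome copy number was not tested here. The authors counted chromosomes in KSFM-Ca2+ lines and reported tetraploid and hyperdiploid cells.

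The surroundings of *Cd44* on chromosome 2 held genes that moved either way. Its 56 neighbours had a median log2 fold change of 0.09, with 21 higher (37.5%) and 10 lower in DKSFM (17.9%), against 35.3% and 37.3% of all tested genes. The nearest tested genes on either side were *Fjx1*, at 32.0 ± 0.410 and 33.1 ± 1.66 (adjusted p = 0.38), and *Pdhx*, which fell from 16.7 ± 0.667 to 12.8 ± 0.423. Beyond *Pdhx*, *Apip* fell from 72.4 ± 6.6 to 47.8 ± 2.4, whereas *Ehf*, an epithelial transcription factor, rose from 8.59 ± 1.07 to 40.4 ± 2.15 and *Cat*, the catalase gene, from 24.2 ± 0.779 to 102 ± 0.828. These flanking genes were chosen by position after their values were seen.

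**Figure D4:**
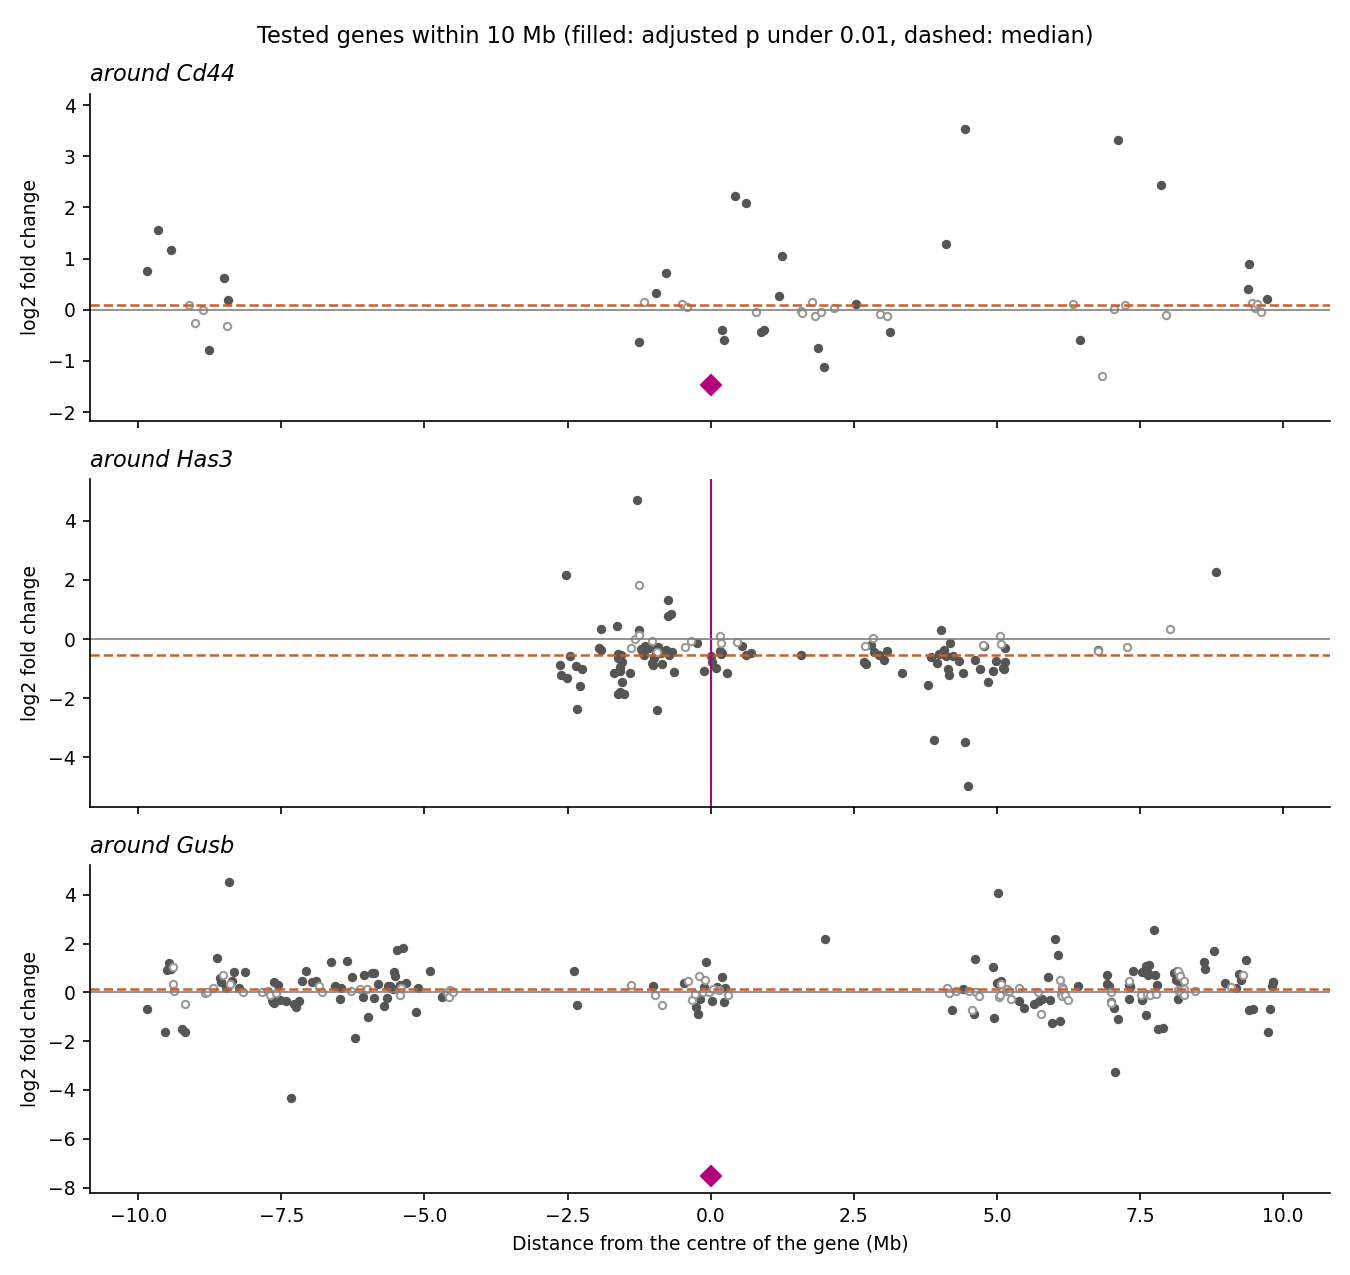
Log2 fold change (DKSFM over KSFM-Ca2+) of tested genes against their distance in Mb from *Cd44*, *Has3* and *Gusb*, leaving out genes listed at 0 throughout a line, with filled points for an adjusted p under 0.01, the gene itself as a diamond (a line for the untested *Has3*) and the median of the neighbours dashed. *Cd44* and *Gusb* lie below neighbours with medians of 0.09 and 0.15, while the neighbours of *Has3* are centred on -0.54.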

How the data were processed

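RNA-seq was measured in 6 libraries, which the sample labels assign to a line and number as replicates. According to the methods and processing notes of the authors, directional poly(A) libraries were sequenced as single reads of 85 bases, aligned to mm10 with STAR, quantified with Salmon and compared by the authors with DESeq2. The files that the authors deposited give for each gene its mean read coverage per base, rounded to 1 decimal, neither filtered nor scaled to library size. How the coverage was computed is not given in the sources used here. Since it holds no counts, no counting interval is given, and the step of 0.1 limits low values.

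From these files, libraries were scaled by a trimmed mean of M values without weights (factors from 0.990 to 1.013). At each end, 30% of M values and 5% of A values were left out. A gene was tested if its normalized coverage reached 0.5 in 3 or more libraries, or in 2 or more where libraries were left out. Log2(normalized coverage + 0.1) was fitted by limma 3.58.1 in R 4.3.3 with an intensity trend, using all 6 libraries without covariates. Benjamini-Hochberg adjustment ran over 12409 genes. Calls needed an adjusted p under 0.01, and a fold change of 2 where stated. Figures were drawn in Python 3.11.15 with matplotlib 3.10.9. The main fit was first run on simulated libraries with known changes. Far fewer genes changed there than differed between the lines, so the scaling was not tested under such widespread differences. The alternative settings were not simulated.

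The members and gene lists were chosen with earlier results of these data known, so lists are described by counts and medians, without a test. Named were all members, from each list the 3 tested genes with the largest absolute log2 fold change past the threshold and the one with the highest coverage, any other gene of a list, and for each tested member the 3 genes with the most similar profile. Some list genes are counted but not reported here. Positions came from GENCODE M21 (GRCm38), where 24490 genes matched by symbol, 70 by synonym and 422 not at all, and promoters from RefSeq. Alternatives covered the scaling (relative log expression, library totals alone, quantiles), the filter (none, or 0.5 in every library), the pseudocount (0.5 and 1), the trend, a replicate block and each library left out in turn. Only the 4 libraries marked as combined were used in an alternative added after seeing the data.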

Additional observations from a re-analysis of the deposited data

How the results depend on the processing

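*Cd44*, *Ugdh*, *Hyal1* and *Hyal2* kept their direction and their side of the adjusted p of 0.01 in all 16 alternatives, with log2 fold changes of -1.54 to -1.44, -0.50 to -0.44, 0.43 to 0.54 and 0.03 to 0.10. *Hmmr* lost its call without DKSFM replicate 2, its log2 fold change being -0.36 to -0.26 with a library left out, and in the libraries marked as combined alone (-0.18), where the single KSFM-Ca2+ library is assumed to vary like the others. That alternative was chosen after seeing the data, and fewer libraries enter it. Without a filter, 1 gene of the receptor and binding list was higher in DKSFM, and *Has3* entered without passing (limma, adjusted p = 0.66). *Has1* and *Has2* entered as well, but each stands against a line listed at 0, where the pseudocount sets the fold, so these values are not used. With the filter on every library, which drops genes near 0 in a line, 1026 genes were at least 2-fold higher in DKSFM in place of 1630. For 87 other list genes, 1342 of 1379 values kept their side of the threshold, 32 lost it, 5 gained it and 0 changed direction past it, and those that lost it include *Mif*, *Tgfa*, *Nagk* and *Hnrnpm*, all with small differences.

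Replicate numbers are shared by both lines. With them as a block, 4251 genes were higher and 4492 lower in DKSFM, and *Cd44* was at -1.48. Deviations of libraries with the same number correlated at -0.005, 0.024 and -0.006 across genes, and not every library correlated best with its own number. What the numbers stand for is not given in the sources used here. Whether libraries with the same number were handled together was not tested.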

Other observations

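*Gusb* was singled out after its values were seen, as the gene of the hyaluronan route with the largest difference. Its neighbours on chromosome 5 moved either way. The 224 tested genes within 10 Mb had a median log2 fold change of 0.15, with 90 higher (40.2%) and 54 lower in DKSFM (24.1%), against 35.3% and 37.3% of all tested genes. *Vkorc1l1*, on one side, was at a normalized coverage of 89.7 ± 2.06 in KSFM-Ca2+ and 90.2 ± 3.68 in DKSFM (SD, n = 3 each; limma, adjusted p = 0.84). *Asl*, on the other side, was at 31.6 ± 1.65 and 24.7 ± 1.88, and *Crcp* beyond it at 61.6 ± 2.69 and 68.5 ± 3.33 (adjusted p = 0.019).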
